A study of Zea mays with 24 samples.

Results

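Genes switched on or off by drought were defined as genes whose transcripts were near absent from the leaves of the maize wild types W22 and DH4866 in one condition and clearly present in the other. A gene was chosen when its expected count was 3 or less in all 4 wild-type libraries of one condition and 30 or more in all 4 wild-type libraries of the other. Expected counts are the reads that RSEM assigned to a gene, with reads that fit several genes divided between them, and a gene not listed in a library was taken as 0. The rule found 178 of the 37467 genes of the series. Of these, 68 were switched on, which means high under drought, and 110 were switched off. In the same 8 libraries, 16176 genes were at 30 or more throughout and 4803 at 3 or less throughout. The genes were chosen by the expected counts of the W22 and DH4866 libraries, so these values are given as a description, and the members were tested only in the other 4 genotypes.

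Drought lowers the water potential of leaf cells and raises abscisic acid, the hormone that closes stomata. Abscisic acid binds PYL receptors, which inhibit protein phosphatases of type 2C and so release SnRK2 kinases to activate stress-responsive transcription factors. Genes known to follow in this pathway encode late embryogenesis abundant (LEA) proteins and dehydrins, which protect membranes and proteins in drying cells, together with chaperones and enzymes that remove reactive oxygen species.

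Leaves were sampled at the V4 stage according to the labels, under drought or normal conditions, with 2 libraries in each of 12 groups. According to the methods, each sample of the W22 and B104 sets pooled leaves of several plants. The 6 genotypes were the zmnf-ya1 mutant, a homozygous transposon insertion line, and its W22 background; ZmNF-YA1 OE, with ZmNF-YA1 under the stress-responsive Arabidopsis rd29A promoter, and its DH4866 background; and ZmNF-YB16 OE with its B104 background. ZmNF-YA1 and ZmNF-YB16 are subunits of NF-Y, a transcription factor that binds the CCAAT box. According to the methods, the B104 set came from field-grown ear leaves after pollination, was extracted by another procedure and was sequenced on another instrument, whereas the W22 set came from potted plants. The methods used here describe no RNA-seq of the DH4866 set.

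The W22 set held 20863136 to 21178202 expected counts per library, the DH4866 set 20696448 to 21289711, and the B104 set 3429314 to 5608889. ZmNF-YA1 (GRMZM2G000686) had 110 and 102 counts in zmnf-ya1 and 121 and 145 in W22 under drought, and 91 and 107 in zmnf-ya1 and 278 and 298 in W22 under normal conditions. The libraries labelled ZmNF-YA1 OE had 133 and 136 counts of it and DH4866 146 and 150 under drought, and 278 and 260 against 236 and 247 under normal conditions. In the libraries labelled ZmNF-YA1 OE it was thus slightly below DH4866 under drought and slightly above it under normal conditions, and they are called by their label throughout. In zmnf-ya1 it was below W22 in both conditions, but reads were present in every library and the levels were close under drought, so that the name zmnf-ya1 also follows the label. The level of ZmNF-YB16 was not analysed here, and ZmNF-YB16 OE is likewise a name from the labels. By the same 2 limits, 323 to 488 genes were on in one condition and off in the other within a genotype of these sets. Between the W22 set and the DH4866 set, 139 to 152 genes differed in this way under drought and 73 to 118 under normal conditions, although W22 and DH4866 are different inbred lines. In ZmNF-YB16 OE and B104, 76 and 90 genes were on in one condition and off in the other, at lower depth. Fewer genes thus separated the W22 set from the DH4866 set than separated drought from normal libraries, and what part of the difference between drought and normal libraries came from anything other than the water supply was not tested.

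The genes switched on had medians of 37 to 691 counts over the 4 wild-type drought libraries, with 26 genes at 100 or more. No read was assigned in any of the 4 normal libraries for 23 of the 68 genes. Among the genes switched off, the medians over the 4 normal libraries were 33.5 to 1935 counts, with 53 genes at 100 or more. No read was assigned in any of the 4 wild-type drought libraries for 52 of the 110 genes. Per length, mean levels where the genes were high were 0.855 to 44.0 FPKM for the genes switched on and 0.748 to 54.7 FPKM for those switched off, with medians of 3.38 and 4.26 FPKM. The limits cut through a continuum. GRMZM5G888945 was included with a lowest drought count of 30, and GRMZM5G849527 was left out at 29.98. GRMZM2G057891 was left out because a normal library had 3.06 counts. Within reach of the limits, 18 further genes switched on had a lowest drought count of 25 to under 30, and 30 had a highest normal count of over 3 to 5. The corresponding numbers were 15 and 23 for genes switched off.

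**Figure D1:**
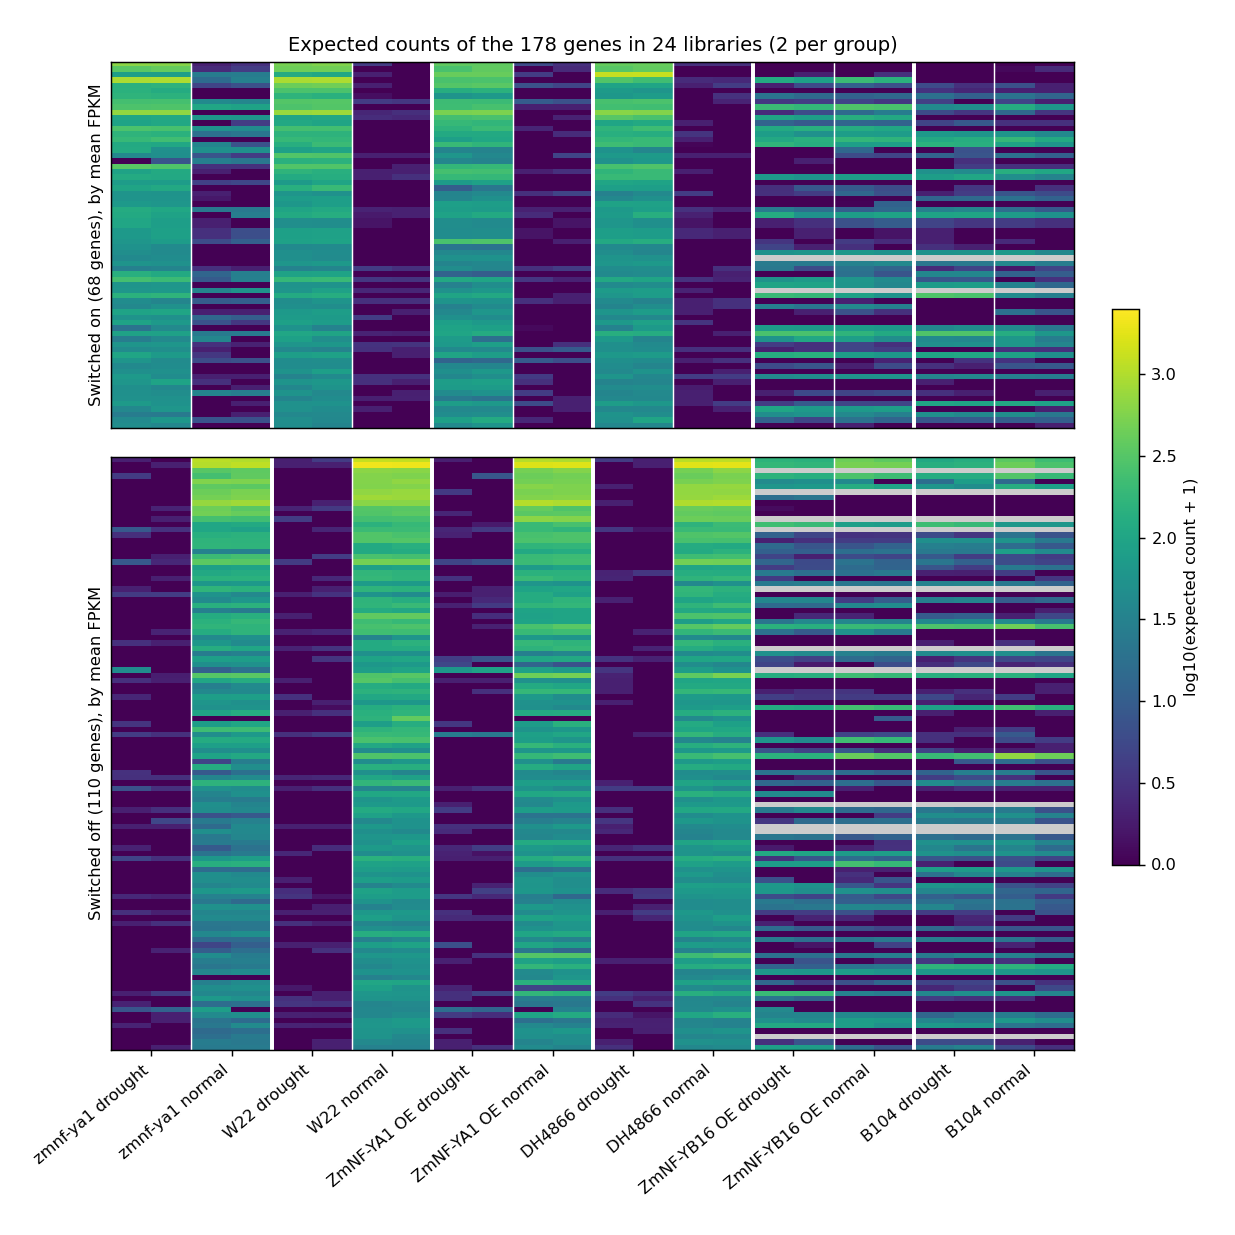
Expected counts (log10 of count + 1, colour) of the 68 genes switched on and the 110 switched off, 1 gene per line from the highest to the lowest mean FPKM, in 24 libraries, 2 side by side per group. Thin white lines separate groups and thick lines genotypes, and grey marks the 13 genes with clone-based IDs that could not be matched in the B104 set. The on and off blocks are fixed by the rule in W22 and DH4866. They are less complete in the libraries labelled ZmNF-YA1 OE and least complete of these in zmnf-ya1, and are not seen in ZmNF-YB16 OE and B104.

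Among the genes switched on, GRMZM2G078368, annotated only as a hypothetical protein, had the highest mean level, 44.0 ± 8.31 FPKM (SD, n = 4). It had 499, 573, 393 and 405 counts in the wild-type drought libraries, against 3, 0, 2 and 2 in the normal ones. GRMZM2G063632 was annotated with the response to wounding and the regulation of defense and of jasmonic acid signalling. In W22 and DH4866 it had 325 to 461 counts under drought and none under normal conditions. GRMZM2G066961 encodes a universal stress protein A-like protein, and GRMZM2G338829 a protein with a tify domain, the motif of the JAZ repressors of jasmonate signalling. Their counts under drought were 438 and 456 in W22 and 92 and 100 in DH4866 for GRMZM2G066961, and 272 and 269 in W22 and 70.6 and 58.0 in DH4866 for GRMZM2G338829. The order of the 2 backgrounds was the other way round for GRMZM2G058173, an undecaprenyl pyrophosphate synthetase of the family that builds long isoprenoid chains, with 121 and 106 counts in W22 and 1243 and 1303 in DH4866 under drought. GRMZM2G167698, an isoflavone 2'-hydroxylase-like cytochrome P450, reached 752 and 785 counts in W22 and 630 and 582 in DH4866 under drought. It had at most 1.86 counts in any normal library of these 2 backgrounds. The normal libraries of ZmNF-YB16 OE held 13.9 and 25.4 counts of it, and those of B104 13.0 and 2.32. Within the group, the drought level in W22 was 8.62% to 450% of that in DH4866 after scaling of each set alone. The median was 111%, and the level was over 200% for 9 genes and under 50% for 2. Over the 17412 genes at 30 or more in the 4 wild-type drought libraries, the median was 88.6%, and 4.19% were under 50%. Levels of single genes differed between the backgrounds, although both gave on states by the rule. Whether they differed more than those of other genes was not tested.

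Of the genes switched off, the one with the highest level was GRMZM2G137891, with no functional annotation, at 54.7 ± 3.26 FPKM (SD, n = 4) under normal conditions. It had 1, 3, 3 and 1 counts in the wild-type drought libraries, against 1246, 1239, 1106 and 1151 in the normal ones. GRMZM2G396477, also uncharacterized, had at most 1 count under drought and 1741 to 2104 under normal conditions. GRMZM5G899188 encodes a 17.0 kDa class II heat shock protein, a small chaperone that keeps unfolding proteins soluble. No read of it was found in the 4 drought libraries, against 580, 687, 498 and 549 counts in the normal ones. A pair of isoprenoid enzymes of the chloroplast were also switched off. GRMZM2G115077, a probable solanesyl-diphosphate synthase 3, which makes the side chain of plastoquinone, had 0 counts under drought and 727 to 833 under normal conditions. GRMZM2G390124, similar to isoprene synthase, which releases the volatile isoprene, had at most 1 count under drought and 625 to 1005 under normal conditions.

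Functions were read from the deposited annotation and RefSeq names, with the first match in a fixed order of classes. With this order, none of the 178 genes was classed as an LEA protein or dehydrin, a seed storage or oil body protein, a lipid transfer, wax or cutin protein, a cell wall protein or an enzyme of sugar metabolism. In the same order, these classes held only 0.186%, 0.34%, 0.23%, 1.24% and 0.562% of the genes tested. Their absence among 178 genes therefore says little. Cell wall organization was a further GO term of GRMZM2G404367, classed as a transcription factor, and of the peroxidase 2-like GRMZM2G029144, classed with the redox genes. Redox, P450 and detoxification genes made up 7 of the 68 genes switched on (10.3%) and 13 of the 110 switched off (11.8%), beside 6.10% of the 25266 genes tested in the W22 or DH4866 set. Chaperones made up 4 genes switched on (5.88%) and 3 switched off (2.73%), beside 0.772%. Transcription factors were 3 switched on and 7 switched off (4.41% and 6.36%, beside 8.82%), and protein kinases or phosphatases 3 and 6 (4.41% and 5.45%, beside 7.40%). No class matched for 49 of the genes switched on and 76 of those switched off (72.1% and 69.1%, beside 63.9%). These shares are a description and were not tested, and some matches rest on a GO term alone, such as an actin-related protein among the redox genes.

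Hormone-related genes stood on both sides. GRMZM2G459755, similar to a peroxisomal beta-oxidation protein and annotated with jasmonic acid synthesis, was switched on, with 94.8 to 134 counts under drought. GRMZM2G026322 is similar to cytochrome P450 734A6, an enzyme that inactivates brassinosteroids in rice, and was switched on with 79.6 and 88.4 counts in W22 and 63.6 and 71.7 in DH4866 under drought. GRMZM5G889326, a scarecrow-like 3 protein of the GRAS family that acts in gibberellin signalling in Arabidopsis, had 59 to 78 counts under drought and at most 1 under normal conditions. GRMZM2G110511, the cis-zeatin O-glucosyltransferase CISZOG2, which stores a cytokinin as its glucoside, was switched off, with 2.95, 0, 0 and 0 counts under drought and 491, 476, 471 and 456 under normal conditions. GRMZM2G083186, similar to indole-3-acetaldehyde oxidase and annotated with the synthesis of auxin and of abscisic acid, was off as well, with at most 0.29 counts under drought and 70.8 to 148 under normal conditions. Among regulators, a WRKY protein (GRMZM2G425430) was off, with no read under drought and 266 to 310 counts under normal conditions. OHP1 (GRMZM2G016150), a bZIP protein that pairs with Opaque2 in the endosperm, was off with 0 to 2.33 counts under drought and 64.6 to 91.4 under normal conditions. A pair of disease resistance proteins similar to RPP13, a pair of glutaredoxins and the glutathione S-transferase GST 18 were switched off, whereas a wall-associated receptor kinase (GRMZM2G010091, 258 to 299 counts under drought) and the cold acclimation protein COR413-PM1 (GRMZM2G052423, 67.7 to 111 counts) were switched on.

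The lists of LEA and dehydrin genes and of abscisic acid signalling genes held no member. They are short, with 68 and 102 of the 37467 genes of the series, so this absence says little. Of 68 LEA and dehydrin genes, the nearest to the rule was GRMZM2G011240, with 30.8, 8.2, 13.1 and 32.7 counts under drought and 0 in the 4 normal libraries. Under drought, 7 LEA and dehydrin genes were called higher and 8 lower of 47 tested in zmnf-ya1, 13 and 4 of 47 in W22, 2 and 7 of 46 in the libraries labelled ZmNF-YA1 OE, and 3 and 8 of 46 in DH4866. A gene was called when edgeR's quasi-likelihood test gave an adjusted P under 0.05 and the log2 fold change was beyond 1 in either direction. Of all genes tested, 12.1% were called higher and 13.2% lower in zmnf-ya1, 17.5% and 14.4% in W22, 12.2% and 12% in the libraries labelled ZmNF-YA1 OE, and 14.0% and 12.9% in DH4866. In the B104 set, 12 LEA and dehydrin genes were called higher of 47 tested in ZmNF-YB16 OE, and 15 higher and 2 lower of 47 in B104, beside 11.3% and 11.9% of all genes in ZmNF-YB16 OE and 12.1% and 13% in B104. The abscisic acid signalling list, 102 genes for type 2C phosphatases, receptors, SnRK2 kinases and related proteins, had 4 genes called higher and 7 lower of 87 tested in zmnf-ya1, 7 and 3 of 87 in W22, 5 and 8 of 88 in the libraries labelled ZmNF-YA1 OE, 7 and 7 of 88 in DH4866, 10 and 4 of 82 in ZmNF-YB16 OE, and 18 and 5 of 82 in B104. Median log2 fold changes of the 2 lists were between -0.07 and 0.40 in the W22 and DH4866 sets and between 0.10 and 0.45 in the B104 set.

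Summed over 18 genes, chlorophyll a-b binding proteins had 82300 to 92500 CPM (counts scaled to a common library total) under drought and 73300 to 107000 under normal conditions in the W22 and DH4866 sets, so that the ranges overlapped. In the B104 set they had 6310 to 6710 under drought and 21700 to 27500 under normal conditions. Phosphoenolpyruvate carboxylase, the carbon-fixing enzyme of maize mesophyll, had 19600 to 23700 under drought and 23500 to 25400 under normal conditions in the W22 and DH4866 sets, and 1590 to 2620 under drought and 17100 to 19100 under normal conditions in the B104 set. In bulk leaf tissue, fewer cells of a type and less RNA per cell cannot be told apart. The part of these shifts in the members' values was not tested.

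The members also shared features that the rule did not use. Their transcripts were short, with a median length of 1085 bases (quartiles 764.5 and 1491) for genes switched on and 1175 bases (817.5 and 1701) for genes switched off, beside 1584 bases (1110 and 2132) for all genes tested. A single annotated transcript was given for 54 genes switched on (79.4%) and 90 switched off (81.8%), beside 55.1% of all genes tested. Names such as hypothetical or uncharacterized protein were carried by 50 (73.5%) and 82 (74.5%), beside 65.1%, and a GO process term by 24 (35.3%) and 47 (42.7%), beside 54.5%. A RefSeq gene of a later B73 assembly carried the same ID for 20 genes switched on (29.4%) and 25 switched off (22.7%), beside 62.4% of all genes tested. The 45 matched IDs fell on 42 RefSeq genes, because GRMZM2G012756 and GRMZM2G076766 shared one and GRMZM2G049370, GRMZM2G049432 and GRMZM2G123794 another, and no other pair of these 45 lay within 5 genes of each other. GRMZM2G367170 and GRMZM2G368498, and likewise GRMZM2G367459 and GRMZM2G454189, had identical counts in all 24 libraries. Fractional counts, which arise when reads are divided between similar genes, occurred for 49 genes switched on (72.1%) and 83 switched off (75.5%), beside 64.4%. The shares among members were thus only moderately above that of all genes tested. A fractional count shows that some reads were divided, but not how many. Assignment of reads among near copies may therefore be uncertain for these members, and to what extent was not tested. The pairs above are not independent.

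The first question was whether the switch also occurred in the lines made from these backgrounds. In zmnf-ya1 under drought, 63 of the 68 genes switched on were at 30 or more in both libraries, and under normal conditions 39 were at 3 or less in both. Of the 110 genes switched off, 102 were at 3 or less in both drought libraries and 74 at 30 or more in both normal libraries. In the libraries labelled ZmNF-YA1 OE, 62 genes switched on were high under drought and 59 low under normal conditions, and 99 genes switched off were low under drought and 96 high under normal conditions. Both limits were met by 36 of the 68 and 69 of the 110 genes in zmnf-ya1, and by 54 and 87 in the libraries labelled ZmNF-YA1 OE. These limits are counts without scaling. Under normal conditions, library totals after edgeR's scaling were 17602285 and 18699895 in zmnf-ya1, 23595162 and 23646837 in W22, and 21565579 and 21969091 in the libraries labelled ZmNF-YA1 OE. The part of this in the numbers was not tested. By test, 62 of the 68 genes switched on rose under drought in zmnf-ya1 and 1 fell, beside the 12.1% called higher and 13.2% called lower of all genes tested there. In the libraries labelled ZmNF-YA1 OE, 67 of the 68 rose, beside 12.2% and 12%. Of the 110 genes switched off, 106 fell in each of them. In both of them, 61 genes switched on rose and 105 switched off fell. All 178 genes passed the filter on low counts in both sets, which the rule ensured through the W22 and DH4866 libraries. These libraries also entered the error estimate of the tests in both lines, so the tests were not fully separate from the rule. The median log2 fold change was 5.62 in zmnf-ya1 and 8.22 in the libraries labelled ZmNF-YA1 OE for genes switched on, and -8.33 and -8.36 for genes switched off, beside 0.01 and -0.01 over all genes tested. With genes at the floor of 3 counts per library set to their bound, these medians were 3.79, 4.63, -4.17 and -4.73.

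**Figure D2:**
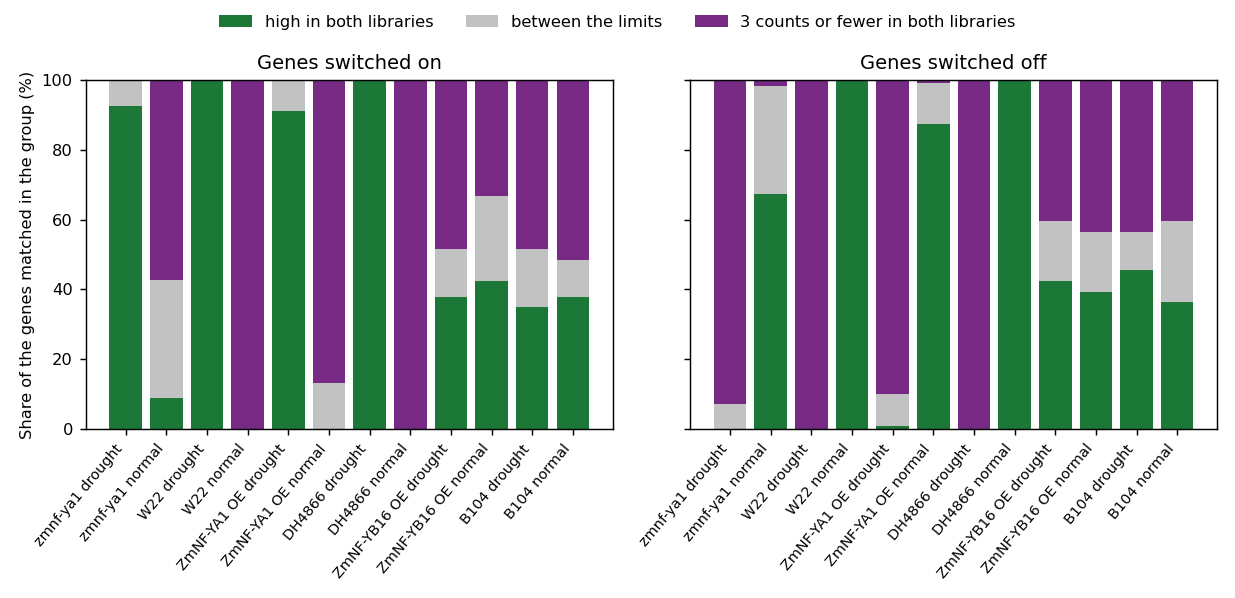
Share of the genes switched on and switched off that were high in both libraries of a group, at 3 counts or fewer in both, or between. High means 30 counts or more, or 7.23 in ZmNF-YB16 OE and B104 in proportion to their depth. The W22 and DH4866 bars are fixed by the rule. Those of zmnf-ya1 and the libraries labelled ZmNF-YA1 OE follow them with a visible share of genes between the limits. Those of ZmNF-YB16 OE and B104 hold many high and many low genes in both conditions. Of 66 genes switched on, 22 were low under normal conditions and 32 under drought in ZmNF-YB16 OE, and 34 and 32 in B104. Of 99 switched off, 39 were high under normal conditions and 42 under drought in ZmNF-YB16 OE, and 36 and 45 in B104.

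Single genes gave large bounds. GRMZM2G167698, the P450, had 708 and 678 counts under drought and 0 and 0 under normal conditions in zmnf-ya1, at least 198-fold higher, and 519 and 542 against 0 and 0 in the libraries labelled ZmNF-YA1 OE, at least 185-fold higher. GRMZM2G338829 with the tify domain had 149 and 121 counts under drought and 0 and 0 under normal conditions in zmnf-ya1, at least 38.6-fold higher. GRMZM2G396477 had 0 and 1 counts under drought and 1056 and 1203 under normal conditions in zmnf-ya1, at least 438-fold lower. The small heat shock gene GRMZM5G899188 had no read under drought in either line, against 570 and 544 counts in zmnf-ya1 and 480 and 508 in the libraries labelled ZmNF-YA1 OE under normal conditions, at least 216-fold and 157-fold lower. In each of these genes the 2 drought libraries lay far outside the range of the 2 normal ones.

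A few members did not follow their direction by test. GRMZM2G425729, an uncharacterized protein, went the other way in zmnf-ya1, with 0 and 6.68 counts under drought and 28.2 and 21.5 under normal conditions (log2 fold change -2.98 ± 0.60 (SE), adjusted P = 0.00101 in edgeR's test). In the libraries labelled ZmNF-YA1 OE it had 35.0 and 31.9 counts under drought and 0 and 0 under normal conditions. GRMZM2G427564, which encodes the RNA polymerase alpha subunit of the chloroplast genome, had no read in any library of either line, whereas under normal conditions the W22 libraries held 157 and 377 counts of it and the DH4866 libraries 39.0 and 52.7. GRMZM2G135558 had no read in zmnf-ya1, but 0 and 0 counts under drought and 37.2 and 59.8 under normal conditions in the libraries labelled ZmNF-YA1 OE. The glutaredoxin AC226221.2_FG011 had 61.4 and 87.1 counts under drought and 88.5 and 70.8 under normal conditions in the libraries labelled ZmNF-YA1 OE, so that the conditions overlapped.

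Transcripts of many genes switched on were present in unstressed zmnf-ya1. Of the 68 genes, 23 lay between the limits in its normal libraries and 6 were at 30 or more in both, whereas 9 lay between the limits in the normal libraries labelled ZmNF-YA1 OE and 0 were at 30 or more. The 6 were GRMZM2G140223 (at least 90 counts under normal conditions), the DnaJ chaperones GRMZM2G016281 (64.2 and 57.9) and GRMZM2G029079 (51.1 and 42.2), a ribosomal protein L26-like gene (GRMZM2G412848, 50.6 and 50.3), GRMZM2G148147 (40.9 and 35.8) and AC233900.1_FG002 (34.6 and 56.4). The normal level was above 10% of the drought level for 22 of the 68 genes in zmnf-ya1 and for 2 in the libraries labelled ZmNF-YA1 OE. Over all genes of the series, 32 were at 30 or more in both normal libraries of zmnf-ya1 and at 3 or less in both of W22, and 9 were the reverse. For the libraries labelled ZmNF-YA1 OE against DH4866 these numbers were 3 and 3. The drought level in zmnf-ya1 was close to that in W22, with a median of 97.9% (quartiles 80.7% and 112%). The level of genes switched off in unstressed zmnf-ya1 had a median of 77.9% of that in W22 (quartiles 51.0% and 111%) and 25 of 110 below 50%, beside 6.03% below 50% of the 17641 genes at 30 or more in the 4 wild-type normal libraries. In the libraries labelled ZmNF-YA1 OE the median was 90.5% of DH4866 and 13 of 110 were below 50%, beside 0.76% of the same 17641 genes. Under normal conditions, the rule required low counts in W22 and DH4866 for genes switched on and high counts for genes switched off. A line outside the rule could thus depart from the low state only upward. The comparisons with these backgrounds were therefore not tested.

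**Figure D3:**
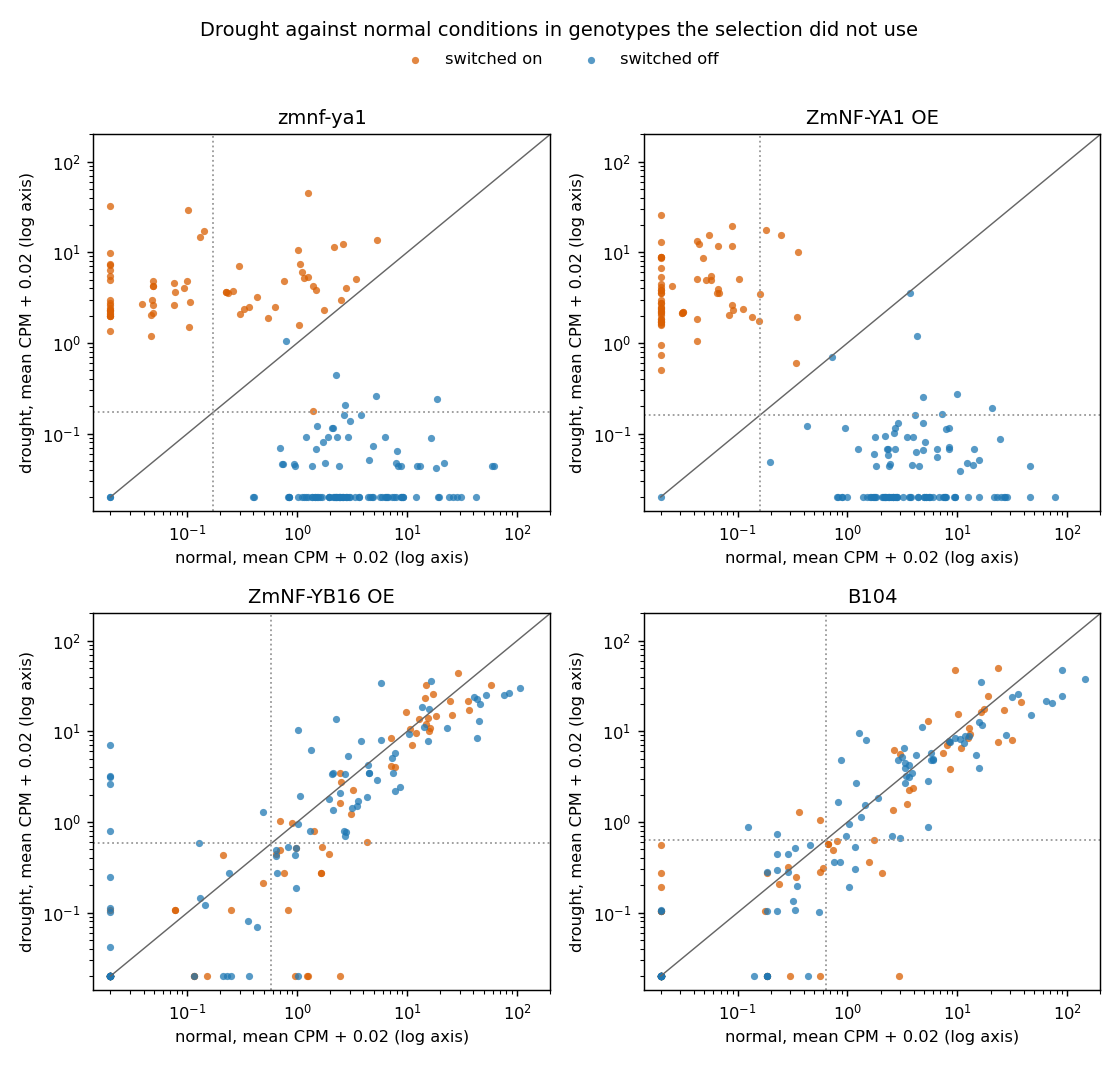
Mean level under drought against mean level under normal conditions (CPM + 0.02, log axes, 2 libraries per mean) of the genes switched on and switched off in the 4 genotypes that did not choose them. Dotted lines mark 3 counts per library and the diagonal marks equal levels. In zmnf-ya1 and ZmNF-YA1 OE the genes split by direction, and in ZmNF-YB16 OE and B104 both kinds lie along the diagonal.

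In the B104 set the switch was not seen. IDs of 66 genes switched on and 99 switched off could be matched there, because 13 clone-based IDs found no match. With the high limit scaled to the depth, 7.23 counts, 18 of the 66 genes switched on (27.3%) were high in all 4 groups and 19 (28.8%) were low in all 4. Of the 99 genes switched off, 27 (27.3%) were high in all 4 groups and 26 (26.3%) low in all 4. Of the 31177 genes with matched IDs listed in that set, 53.9% were high and 15.8% low in its 8 libraries. These shares leave out genes not listed there, whereas the members at 0 are counted. None of the 66 was low under normal conditions and high under drought in both ZmNF-YB16 OE and B104, and none of the 99 the reverse. At this depth a low level could not be told from an off state for the weaker genes, but the genes that were high in both conditions do not depend on it. Examples are GRMZM2G026322, the P450 734A6-like gene, with 131 and 145 counts under drought and 76.2 and 61.7 under normal conditions in ZmNF-YB16 OE, and 98.5 and 108 against 90.9 and 48.2 in B104. GRMZM2G042133, a DnaJ gene switched off in the wild types, had 129 and 138 counts under drought and 223 and 188 under normal conditions in ZmNF-YB16 OE, and 135 and 145 against 143 and 99.8 in B104. At the other end, the isoprene synthase-like GRMZM2G390124 had no read in any of the 8 libraries, and neither had GRMZM2G078368, the gene of highest level among those switched on. In all, 7 genes switched on and 13 switched off were at 0 in all 8 libraries.

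By test, 35 genes switched on and 56 switched off passed the filter in the B104 set. Under drought, 1 of the 35 rose and 6 fell in ZmNF-YB16 OE, beside 11.3% and 11.9% of all genes tested, and 5 rose and 4 fell in B104, beside 12.1% and 13%. The 5 became 3 without normal library 1, drought library 1 or drought library 2 of B104. Of the 56 genes switched off, 16 fell and 8 rose in ZmNF-YB16 OE, and 11 fell and 6 rose in B104. Medians of the log2 fold change were -0.35 and -0.66 in ZmNF-YB16 OE and -0.23 and -0.27 in B104 for genes switched on and off, beside 0.00 over all genes. The gene switched on that rose in both was GRMZM2G700599, of unknown function, with 200 and 183 counts under drought and 86.8 and 55.3 under normal conditions in ZmNF-YB16 OE, and 293 and 263 against 44.6 and 28.8 in B104. Its log2 fold changes were 1.12 ± 0.14 (SE, adjusted P = 7.39e-07) and 2.33 ± 0.15 (adjusted P = 3.92e-11), and the change in ZmNF-YB16 OE was 0.94, under the fold limit, without normal library 2 of ZmNF-YB16 OE.

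The genes switched off that also fell in the B104 set kept transcripts under drought. GRMZM2G137891 had 162 and 150 counts under drought and 444 and 363 under normal conditions in ZmNF-YB16 OE, and 110 and 129 against 353 and 219 in B104, with log2 fold changes of -1.68 ± 0.09 and -1.83 ± 0.10 (SE). GRMZM2G396477 had 182 and 173 counts under drought and 511 and 487 under normal conditions in ZmNF-YB16 OE, and 134 and 149 against 437 and 269 in B104. GRMZM2G393436 and GRMZM5G822098, both uncharacterized, fell in both genotypes as well, by 1.04 and 1.08 on the log2 scale in ZmNF-YB16 OE and by 1.55 and 1.57 in B104. Scaled by library size alone, their changes in ZmNF-YB16 OE were -0.79 and -0.83 and no longer passed the fold limit. In none of these did a drought library reach the range of the normal libraries, and none was near the floor. In all, 9 genes switched off fell in both genotypes of the B104 set.

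Other members went against their direction there. GRMZM5G876960, a probable polyamine oxidase 2, an enzyme that breaks down spermine and spermidine, was switched off in the wild types but had 226 and 196 counts under drought and 80.9 and 74.4 under normal conditions in ZmNF-YB16 OE, and 220.0 and 186 against 61.9 and 60.2 in B104 (log2 fold changes 1.13 ± 0.15 and 1.15 ± 0.16, SE, adjusted P = 2.64e-06 and 4.77e-06). GRMZM2G411046 had 67.5 and 53.7 counts under drought and 7.36 and 2.43 under normal conditions in ZmNF-YB16 OE, and 58.5 and 51.7 against 6.21 and 3.74 in B104, a rise of 3.41 ± 0.38 and 2.88 ± 0.38 on the log2 scale. GRMZM2G054969, annotated with carbohydrate transport, rose in both as well, by 2.55 ± 0.31 and 2.40 ± 0.46. Among genes switched on, GRMZM2G140223 fell in B104, with 42.0 and 47.0 counts under drought and 126 and 63.0 under normal conditions (log2 fold change -1.65 ± 0.17, adjusted P = 8.94e-08), and GRMZM2G408038 fell there with 51 and 43 against up to 135 (-1.94 ± 0.21, adjusted P = 2.87e-07). The heat shock gene GRMZM5G899188 had 16.1 and 76.3 counts under drought and 13.9 and 0 under normal conditions in B104, and its rise there (adjusted P = 0.0490 in edgeR's test) was lost without drought library 1 or 2 of ZmNF-YB16 OE (adjusted P = 0.0728 and 0.0729), without normal library 2 of B104 (adjusted P = 0.143) or without drought library 2 of B104 (adjusted P = 0.679).

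The next question was whether the members differed between ZmNF-YB16 OE and B104. Under normal conditions, 9 of the 35 genes switched on that were tested were higher and 5 lower in ZmNF-YB16 OE, and of the 56 switched off 8 were higher and 11 lower, beside 5.69% higher and 6.19% lower of all genes tested. Under drought, 9 and 6 of the 35 and 11 and 10 of the 56 were called, beside 5.48% and 6.10%. The calls went both ways. By state, 5 genes switched on and 2 switched off were high in both conditions in ZmNF-YB16 OE and low in both in B104, and 2 and 6 were the reverse. Over the 31177 genes with matched IDs listed in the B104 set, 128 and 77 genes had these states.

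The 4 DnaJ members switched on, cofactors that hand unfolded proteins to Hsp70, were each called higher in ZmNF-YB16 OE than in B104 in both conditions. The DnaJ member switched off, GRMZM2G042133, was not called in either. It was named a putative DnaJ protein, but its GO terms were DNA repair, DNA duplex unwinding and telomere maintenance. GRMZM2G433854 had 120 and 85.0 counts under drought and 206 and 147 under normal conditions in ZmNF-YB16 OE, and no read in the 4 libraries of B104. GRMZM2G016281 had 98.1 and 79.2 counts under drought and 136 and 110 under normal conditions in ZmNF-YB16 OE, and GRMZM2G029079 had 117 and 139 against 125 and 106, again with no read in B104. These genes and GRMZM2G433854 passed the filter on low counts only through ZmNF-YB16 OE, where they were high, so their calls are a description. GRMZM2G337845 had 55.3 and 69.4 counts under drought and 59.9 and 41.7 under normal conditions in ZmNF-YB16 OE, and 7.18 and 7.48 against 0 and 2.09 in B104. In zmnf-ya1, GRMZM2G433854 had 931 and 953 counts under drought and 14.6 and 30.6 under normal conditions, a rise of 5.13 ± 0.15 on the log2 scale, whereas GRMZM2G016281 had 103 and 112 against 64.2 and 57.9 (log2 fold change 0.60 ± 0.17), which did not pass the fold limit. Their counts were fractional, so reads may have been divided among them or with genes not in the set, and how they would be assigned otherwise was not tested.

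**Figure D4:**
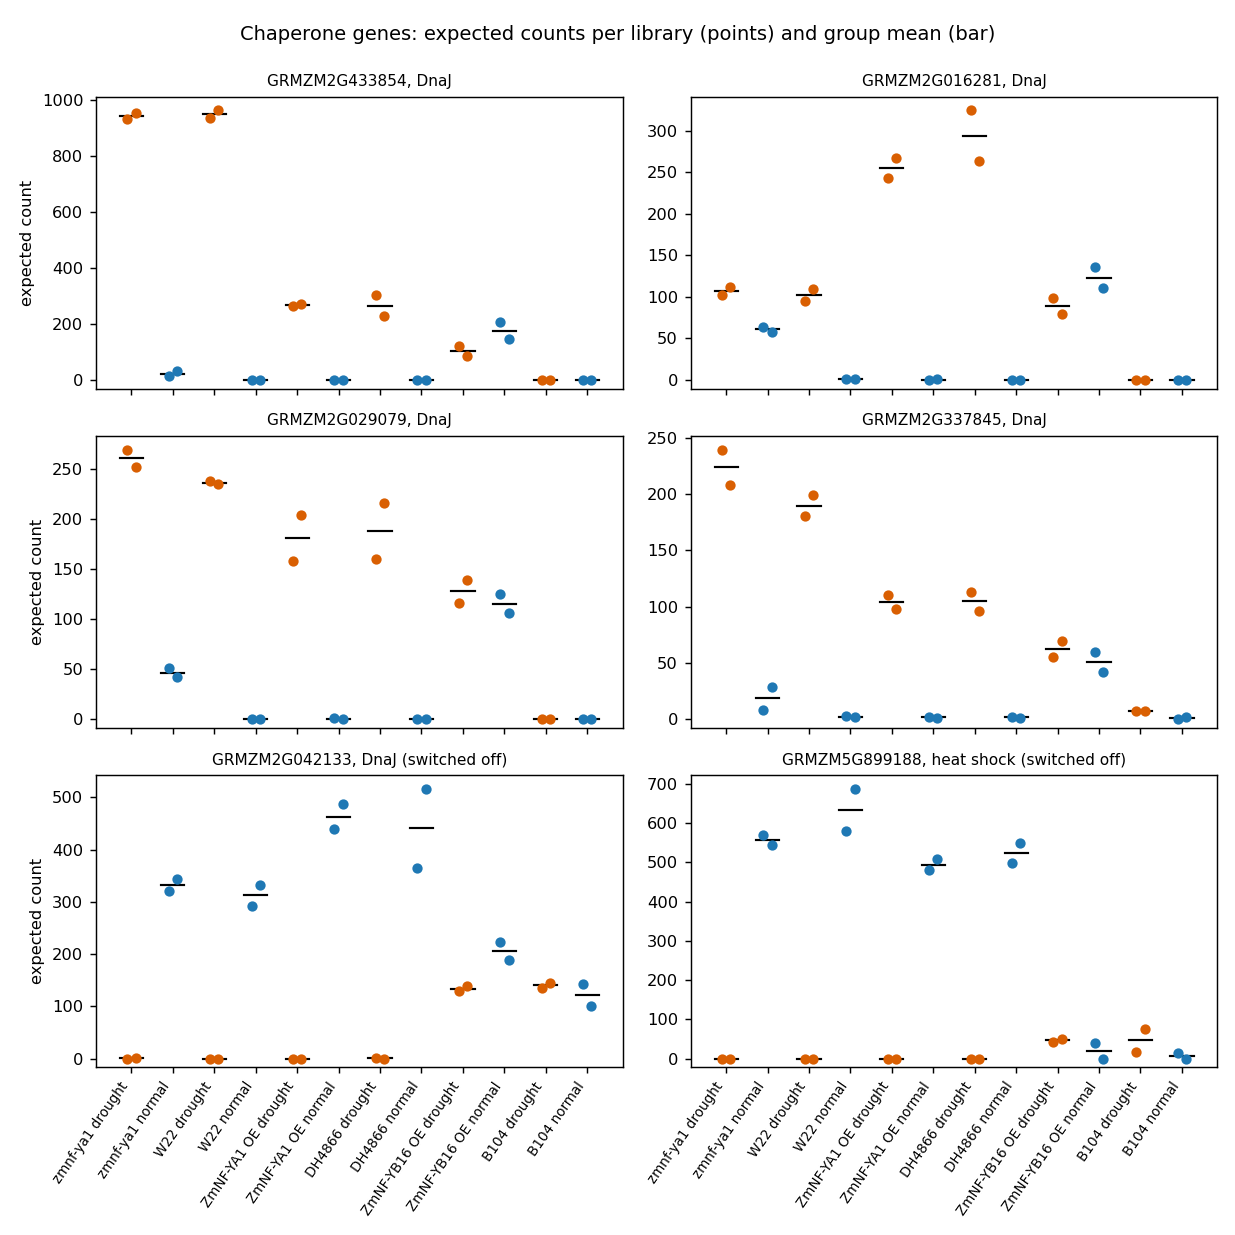
Expected counts of 5 DnaJ genes and 1 small heat shock gene in each library (points, drought orange and normal blue) with the group mean (bar), in 12 groups of 2 libraries. The first 4 genes were switched on and the last pair switched off in W22 and DH4866. GRMZM2G433854, GRMZM2G016281 and GRMZM2G029079 have no read in B104 and 79.2 to 206 counts in ZmNF-YB16 OE under both conditions.

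GRMZM2G408038, annotated with proteolysis, was the reverse case, with no read in ZmNF-YB16 OE and 51 and 43 counts under drought and up to 135 under normal conditions in B104. GRMZM2G057491, a cytoplasmic glutamyl-tRNA synthetase switched off in the wild types, had 11.9 and 10.1 counts in ZmNF-YB16 OE and 160 and 143 in B104 under drought (log2 fold change -3.79 ± 0.23, adjusted P = 6.07e-11), and 18.6 and 21.9 against 155 and 118 under normal conditions. GRMZM2G152824, and GRMZM5G891656, annotated with secondary metabolism and oxidation-reduction, were higher in ZmNF-YB16 OE in both conditions, with 238 and 191 counts in ZmNF-YB16 OE and 5.06 and 0 in B104 for GRMZM2G152824, and 226 and 189 against 5.0 and 3.0 for GRMZM5G891656, under normal conditions. GRMZM2G115077, the solanesyl-diphosphate synthase, had 16.7 and 20.6 counts in ZmNF-YB16 OE and 0 and 0 in B104 under drought, and no read in either under normal conditions. GRMZM2G021514, annotated with molybdate transport, had the same pattern with 42.1 and 41.2 counts in ZmNF-YB16 OE under drought and no read in the other 6 libraries.

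The interaction of ZmNF-YB16 OE and drought was called for 3 of the 35 genes switched on, all with a lower response in ZmNF-YB16 OE, and for 4 of the 56 switched off, 2 in each direction, beside 3.23% of all genes tested called higher and 3.51% called lower. The 4 became 2 without normal library 1 or drought library 1 of B104 and 1 without normal library 1 of ZmNF-YB16 OE. GRMZM2G106493 had 0 and 0 counts under drought and 17.0 and 7.0 under normal conditions in ZmNF-YB16 OE, and 37.0 and 36.0 against 11.0 and 9.0 in B104. GRMZM2G172751 had 203 and 196 counts under drought and 30 and 25 under normal conditions in ZmNF-YB16 OE, and 37.0 and 49.0 against 56.0 and 34.0 in B104, an interaction of 3.18 ± 0.28 on the log2 scale (SE, adjusted P = 6.47e-08). GRMZM2G085038, annotated with protein phosphorylation, had 66.0 and 53.0 counts under drought and 76.0 and 74.0 under normal conditions in ZmNF-YB16 OE, and 77.0 and 102 against 47 and 32 in B104.

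**Figure D5:**
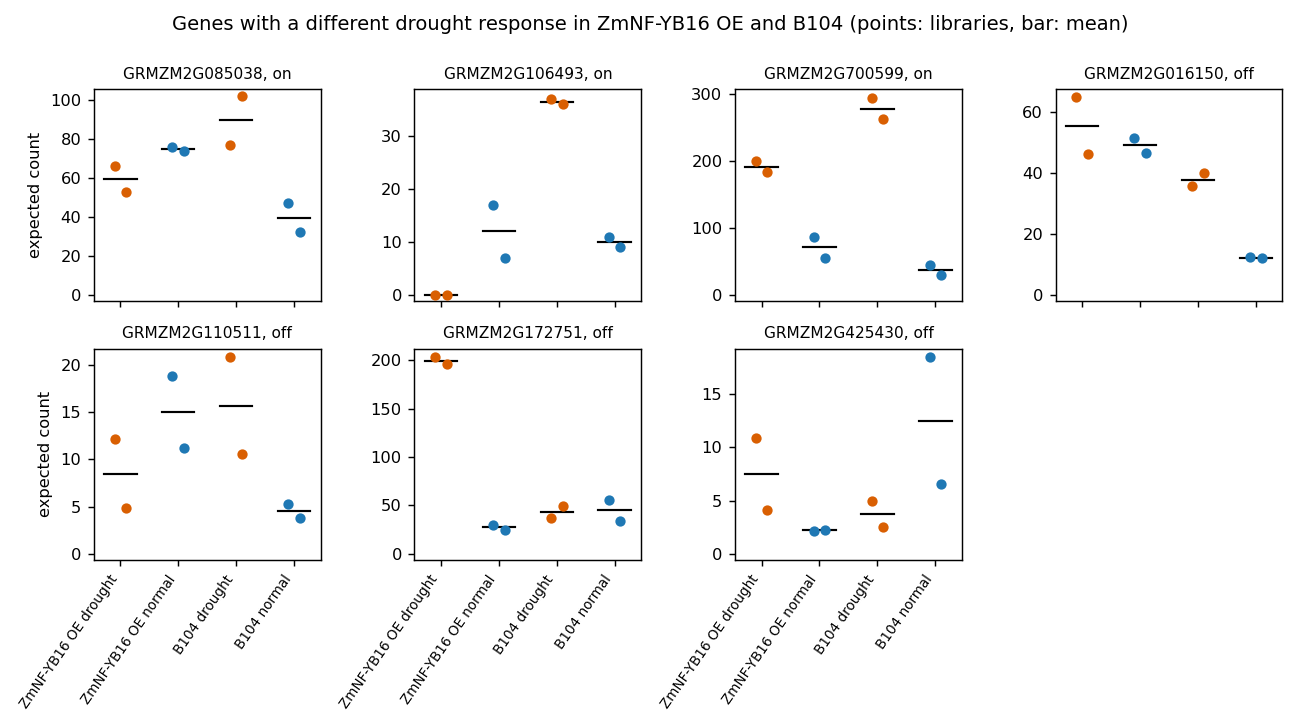
Expected counts in the 8 libraries of the B104 set (points, drought orange and normal blue, bar for the mean of 2) of the 7 members whose drought response differed between ZmNF-YB16 OE and B104. GRMZM2G172751 stands out, with 203 and 196 counts in ZmNF-YB16 OE under drought and 25 to 56 in the other 6 libraries.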

How the data were processed

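The authors filtered reads with SOAPnuke, aligned them with Bowtie2 to the maize B73 V3 gene set and estimated expression with RSEM. The deposited values are expected counts, without scaling between libraries, and FPKM, fragments scaled to gene length and library total, and the methods name no strand setting. The authors did not list genes below 0.01 FPKM. Expected counts were rounded, and each set of 8 libraries was fitted alone in R 4.3.3 with edgeR 4.0.16 (filter on low counts by group, TMM, quasi-likelihood test, 4 groups), with P values adjusted over all 24159, 24604 and 21970 genes tested in the W22, DH4866 and B104 sets. Error per gene rests on 2 libraries per group, for which an exact permutation test could not give a P below 0.333. The methods state 2 replicates of pooled plants for the W22 and B104 sets and no more of their origin, so P values measure the spread between these libraries. Floors cover counting error only.

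Simulations held 23307, 23910 and 21313 genes for drought in zmnf-ya1, in the libraries labelled ZmNF-YA1 OE and in ZmNF-YB16 OE. In each, 200 of 200 genes changed by a log2 fold of 2 were recovered, with 2, 2 and 3 false calls. Far fewer genes were changed than were called under drought in the data. Recovery of genes near the floor was not measured apart. These numbers therefore do not show how reliable calls were at low counts, where the members lay in one condition, or for weak genes of the B104 set.

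The genes and lists were chosen with earlier results of these data known. Genes were named by a rule: the 12 switched on and 8 switched off of highest mean FPKM, up to 4 per genotype called against their direction or low where high was the rule, and up to 4 per comparison of ZmNF-YB16 OE with B104. Other named members were chosen for their annotation after their values were seen. Alternatives were other limits of the rule, DESeq2 1.42.0, RLE factors, library size alone, no filter, a stricter P, limma 3.58.1 on log2(FPKM + 1) or log2(FPKM + 0.1), a replicate block, fits of only the groups compared, and each library left out. RefSeq names came from assembly Zm-B73-REFERENCE-NAM-5.0, another build, so no coordinates or sequences are given. Figures were drawn with matplotlib 3.10.9 in Python 3.11.15.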

Additional observations from a re-analysis of the deposited data

Results flagged for a closer look

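A total of 7 members had a drought response that differed between ZmNF-YB16 OE and B104 by the interaction term of edgeR's quasi-likelihood test. The interaction, in log2 units and positive where the response was higher in ZmNF-YB16 OE, was 3.18 for GRMZM2G172751 and 3.87 for the WRKY gene GRMZM2G425430. It was -7.96 for GRMZM2G106493, a fitted value that rests on 2 drought libraries of ZmNF-YB16 OE without a read. It was -1.25 for GRMZM2G085038, -1.21 for GRMZM2G700599, -1.22 for OHP1 (GRMZM2G016150) and -2.34 for CISZOG2 (GRMZM2G110511). CISZOG2 and GRMZM2G425430 had at most 20.9 counts in any of these libraries. Adjusted P values were 6.47e-08 for GRMZM2G172751, 6.88e-05 for GRMZM2G106493, 0.000428 for GRMZM2G700599, 0.00374 for GRMZM2G085038, 0.0142 for GRMZM2G425430, 0.0408 for GRMZM2G016150 and 0.0452 for GRMZM2G110511. With DESeq2 that of GRMZM2G085038 was 0.0688.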

How the results depend on the processing

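The numbers of members depended on the limits of the rule. There were 39 genes switched on and 66 switched off at no more than 1 count in the low condition, 38 and 68 at 50 or more in the high condition, and 108 switched on at 20 or more. The counts of members that rose or fell in zmnf-ya1 and in the libraries labelled ZmNF-YA1 OE stayed within 1.5 times under each alternative run. In the B104 set the 5 genes switched on that rose in B104 became 3 with DESeq2 and 3 at an adjusted P of 0.001. The 16 genes switched off that fell in ZmNF-YB16 OE became 10 with library size alone, 9 at an adjusted P of 0.001, and 8 with limma at either pseudocount. The 4 genes switched off with an interaction became 2 with DESeq2, 1 at an adjusted P of 0.001 and 9 with limma on log2(FPKM + 1). With each library left out in turn, these 3 counts were 3 to 4, 13 to 17 and 1 to 4, the single gene switched on that rose in ZmNF-YB16 OE gave 0 to 1, and the rule found 69 to 76 genes switched on and 112 to 119 switched off. The causes were not tested. Of the single named values, 2220 kept their call, 50 lost it, 4 gained one and 0 reversed.

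Library size alone moved the median log2 change of all genes to 0.23 in zmnf-ya1, 0.26 in ZmNF-YB16 OE and 0.29 in B104, and to -0.15 in W22 and -0.10 in the libraries labelled ZmNF-YA1 OE. The share of higher calls was then 60.2%, 64.9%, 65.9%, 46.6% and 45.7% in this order, against 47.9%, 48.7%, 48.2%, 55% and 50.5% with TMM. The fit of only the groups compared was not run for the interaction, which needs all 4 groups.

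The replicate numbers pair no libraries in the labels. With the replicate number as a block, 12 in place of 11 genes switched off fell in B104, 4 in place of 5 switched on rose there, and 14 in place of 15 switched on differed between ZmNF-YB16 OE and B104 under drought. The other counts stayed as they were. Correlations of deviations between libraries of the same number ran between -0.00562 and 0.0675 for the W22 set, between 0.0424 and 0.0832 for DH4866, and between -0.0217 and 0.0326 for B104.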
